A study of Sus scrofa with 9 samples.

Results

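Complex I, the NADH dehydrogenase at the entry of the respiratory chain, is built from subunits of 2 genomes, and the 7 subunits described here, ND1, ND2, ND3, ND4, ND4L, ND5 and ND6, are those encoded in mitochondrial DNA. The members were taken by gene symbol from a table of 19643 entries, and each of the 7 matched 1 entry: ENSSSCG00000018065 for ND1, ENSSSCG00000018069 for ND2, ENSSSCG00000018084 for ND3, ENSSSCG00000018087 for ND4, ENSSSCG00000018086 for ND4L, ENSSSCG00000018091 for ND5 and ENSSSCG00000018092 for ND6. All 7 passed the filter on low values, a mean of 1 FPKM or more, and were tested with the other entries that passed it, 13106 in all. RNA came from the back muscle longissimus dorsi of embryonic pigs. There were 3 libraries of the Tibetan breed, 3 of the Wujin breed, both indigenous to China, and 3 of the introduced Large White breed. The labels give no treatment, sex, day of gestation or genotype, and do not say whether the libraries of a breed came from different animals or from pooled tissue, so the p-values rest on a spread that may be technical. Among the Wujin libraries 1 carries its number, and the other columns share a header and are called Wujin a and Wujin b.

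All 7 subunits lie in the membrane arm of the complex. ND2, ND4 and ND5 are its antiporter-like, proton-pumping subunits, ND1 sits where the membrane arm meets the peripheral arm and forms part of the quinone chamber, and the small subunits ND3, ND4L and ND6 lie between them in the coupling region. The genes are transcribed as long precursors that are cut into single mRNAs, so mRNAs of a strand share their synthesis while their steady levels can differ. In RefSeq's annotation of Sscrofa11.1, used here only for gene order, ND1 and ND2 come first, then the genes of cytochrome oxidase and ATP synthase, then ND3, ND4L, ND4, ND5 and ND6, with CYTB last. ND6 is encoded on the other strand from the rest, and the reading frames of ND4L and ND4 overlap. Whether the authors' counting used strand, and how it treated overlapping genes and copies of mitochondrial sequence in the nuclear chromosomes, is not given in the sources used here. Strand bears most directly on ND6 and overlap on ND4L and ND4, while nuclear copies can bear on any member. Every member carries that last uncertainty.

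The values are FPKM, fragments scaled to transcript length and to the mapped fragments of the library. Total FPKM was 590532 to 677783 among Tibetan, 505042 to 550483 among Wujin and 541521 to 586937 among Large White libraries. The number of fragments is unknown, and the steps between low values put the depth of each library at 1 to 1.22 times that of Large White 1. The scaling between breeds matters for every level below. The median entry tested was 0.77 lower in Tibetan than in Large White libraries on the log2 scale as deposited, and 0.20 lower in Wujin than in Large White libraries. Median-ratio scaling divides each library by a factor so that the typical entry is level, and the factors were 0.624 to 0.710 for Tibetan, 0.981 to 1.22 for Wujin and 1.30 to 1.36 for Large White libraries. Of the 11 skeletal muscle markers listed, 6 were matched, and 0 of these were at 0 in any breed. Their summed FPKM was 12285 to 55182 among Tibetan, 19239 to 20737 among Wujin and 14256 to 17069.7 among Large White libraries. ACTA1, skeletal alpha-actin, averaged 26418 FPKM in Tibetan, 6526 in Wujin and 3670.4 in Large White libraries, and MYH8, the perinatal myosin heavy chain, averaged 3330.4 FPKM in Tibetan, 108 in Wujin and 54.0 in Large White libraries. Others of the list ran the other way: ACTC1, the cardiac alpha-actin also made in embryonic muscle, averaged 24.6 FPKM in Tibetan, 7582 in Wujin and 6593 in Large White libraries, and MYH3, the embryonic myosin heavy chain, 62.6 FPKM in Tibetan, 1429 in Wujin and 1754 in Large White libraries. Of the lists of other cell types, 3 had lower sums in Tibetan libraries as deposited, a scale on which the median entry was lower there too. The sums were not taken after median-ratio scaling. The summed FPKM of 6 fibroblast and matrix markers was 319 to 356 among Tibetan, 3059 to 5569 among Wujin and 5299 to 5935 among Large White libraries. That of 5 erythroid markers was 149 to 579 among Tibetan, 1471 to 3841 among Wujin and 1931 to 3744 among Large White libraries, with HBZ listed at 0 in Tibetan libraries, and that of 4 endothelial markers 32.0 to 43.7 among Tibetan, 52.6 to 82.2 among Wujin and 84.1 to 88.7 among Large White libraries. Of these 4, TEK ran the other way, averaging 1.89 FPKM in Tibetan, 1.38 in Wujin and 1.57 in Large White libraries. The sum of 2 adipocyte markers was higher, at 1.60 to 5.50 among Tibetan, 0.228 to 1.49 among Wujin and 0.0516 to 0.155 among Large White libraries. That of 4 neural and Schwann markers was 9.32 to 16.8 among Tibetan, 9.51 to 16.3 among Wujin and 5.10 to 8.85 among Large White libraries. That of 3 leukocyte markers overlapped, at 2.97 to 6.99 among Tibetan, 3.23 to 3.79 among Wujin and 3.42 to 7.04 among Large White libraries, and the 1 cardiac marker, NPPB, was at most 0.266 FPKM in any library. Their part in the differences of the ND mRNAs was not tested, and in bulk tissue fewer cells of a type and less RNA per cell cannot be told apart.

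ND3 was the most abundant ND mRNA per length in every library. Its level was 8496, 7642 and 7776 FPKM in Tibetan 1, 2 and 3, then 3071, 4985 and 5415 FPKM in Wujin 1, a and b, and 8765, 6981 and 6689 FPKM in Large White 1, 2 and 3. The Tibetan and Large White ranges overlapped, and all Wujin libraries lay below both. The next mRNA in the order differed between breeds. In Tibetan libraries ND4 followed at 2596 ± 473 FPKM (SD, n = 3), then ND1 at 2149 ± 285, ND4L at 1469 ± 410, ND5 at 1351 ± 271, ND2 at 709.6 ± 186 and ND6 at 565 ± 101. In Wujin libraries ND4 also came second, at 1392 ± 296 FPKM, then ND4L at 933 ± 313, ND1 at 789.9 ± 127, ND5 at 744 ± 182, ND6 at 385 ± 69.7 and ND2 at 314 ± 75.8. In Large White libraries ND1 at 1611 ± 217, ND4L at 1566 ± 34.4, ND2 at 1497 ± 199 and ND4 at 1416 ± 143 FPKM had ranges that overlapped from each to the next. ND5 at 1053 ± 89.0 and ND6 at 1011 ± 85.9 FPKM lay below those 4 and overlapped with each other. In Tibetan libraries the ranges of ND4 and ND1, of ND4L and ND5, and of ND2 and ND6 overlapped. In Wujin libraries ND4 overlapped with ND4L, ND4L with ND1, ND1 with ND5, and ND6 with ND2. Compared within each library, ND4 lay above ND4L, ND1 above ND5 and ND6 above ND2 in 3 of 3 Wujin libraries. ND4 lay above ND1 and ND2 above ND6 in 3 of 3 Tibetan libraries, and ND2 above ND4 in 3 of 3 Large White libraries. The remaining overlapping pairs kept their order in 2 of 3 libraries. ND2 thus stood 4th of 7 in Large White libraries, 6th in Tibetan and 7th in Wujin libraries.

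**Figure D1:**
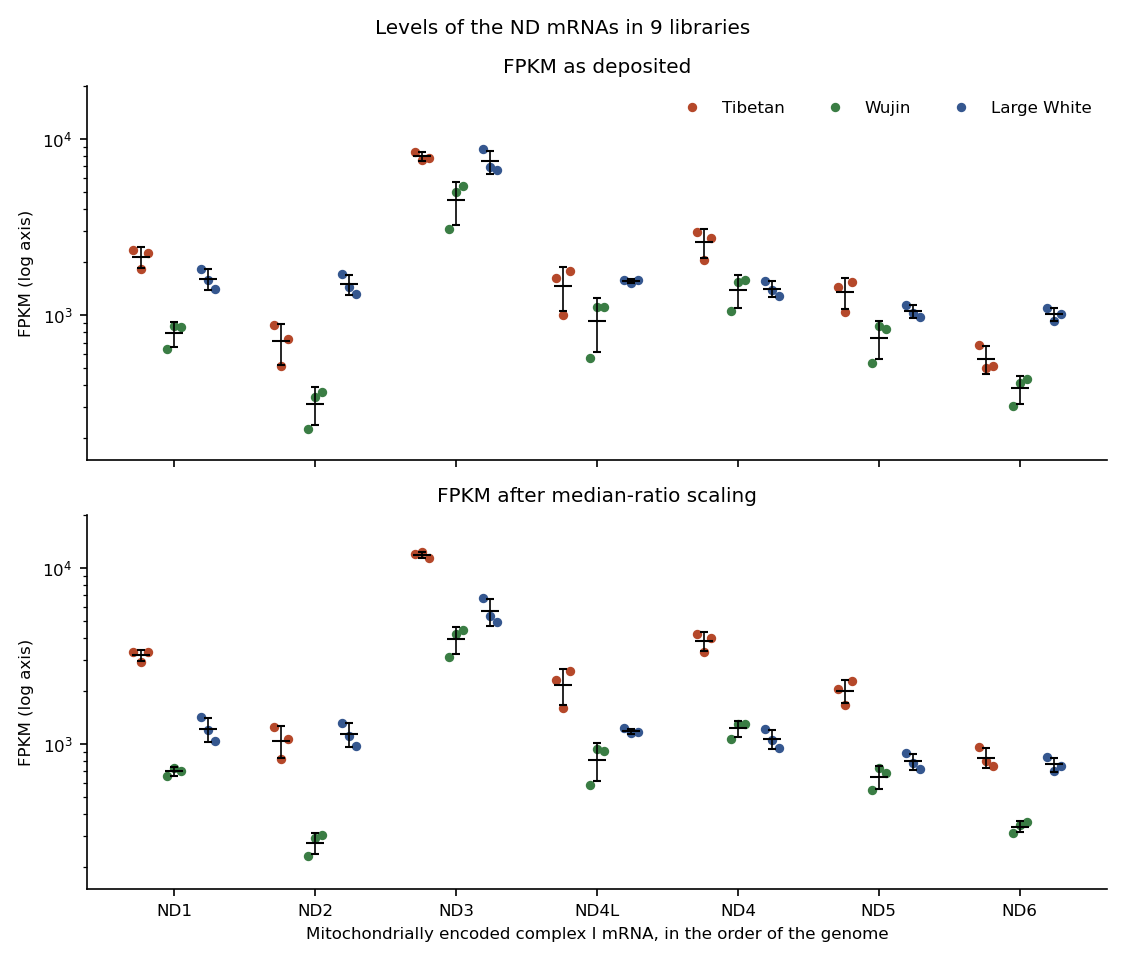
FPKM of each ND mRNA in each library, on log axes, as deposited (top) and after median-ratio scaling (bottom), with the mean ± SD of 3 libraries in black. ND3 is the highest in every library, and ND2 and ND6 of Wujin libraries are the lowest, with ND2 at 314 FPKM and ND6 at 385 FPKM on average as deposited.

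Single libraries shifted all ND mRNAs at once. Wujin 1 had the lowest deposited level of all 9 libraries for 7 of the 7 members, and after median-ratio scaling it was the lowest of its breed for 7 and of all libraries for 6. Tibetan 2 was the lowest Tibetan library for 7 members as deposited and for 5 after median-ratio scaling. Large White 1 was the highest Large White library for 7 members on either scale. The values below are therefore given with the result of leaving out a library where that ends a call.

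The comparison of Tibetan with Large White muscle sets an indigenous breed against the introduced one before birth. Day of gestation is not given, and the embryonic and perinatal myosins differed between these libraries as given above. Breed and developmental stage therefore cannot be told apart in this or the other comparisons. As deposited, ND4 was higher in Tibetan muscle, ND2 and ND6 were lower, and ND1, ND3, ND4L and ND5 were not called. That is 1 of 7 members higher, where 13% of all entries tested were called higher, and 2 of 7 lower, where 63.2% were called lower (limma, adjusted p under 0.05). The median log2 fold change of the members was 0.10, against -0.77 over all entries tested. After median-ratio scaling, ND1, ND3, ND4, ND4L and ND5 were called higher in Tibetan muscle, 5 of 7 against 32.4% of all entries. On that scale 0 members were called lower, against 33.0% of all entries. At an unadjusted p under 0.05 it was 0 of 7 members, against 4528 of 13106 entries. The median change on that scale was 1.08 for the members and -0.01 for all entries.

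Among the antiporter-like subunits, ND4 had 2975, 2066 and 2747 FPKM in Tibetan 1, 2 and 3, against 1573, 1385 and 1291 FPKM in Large White 1, 2 and 3. The groups did not overlap, and the fold change was 0.86 ± 0.20 on the log2(FPKM + 1) scale (SE, limma adjusted p = 0.00352). After median-ratio scaling ND4 averaged 3836 ± 462 in Tibetan and 1071 ± 131 FPKM in Large White libraries (SD), a log2 change of 1.84 ± 0.17 (SE, limma adjusted p = 1.40e-05). ND2 went the other way. It had 885, 514 and 730.3 FPKM in Tibetan 1, 2 and 3, against 1715, 1454 and 1323 FPKM in Large White 1, 2 and 3. Every Tibetan library lay below every Large White library, with a log2 change of -1.10 ± 0.24 (limma adjusted p = 0.00244). That change is -0.33 relative to the median entry, and under median-ratio scaling ND2 stood at 1045 ± 212 in Tibetan and 1133 ± 175 FPKM in Large White libraries, groups that overlapped (log2 change -0.13 ± 0.20, limma adjusted p = 0.598). ND5 had 1455, 1043 and 1554 FPKM in Tibetan 1, 2 and 3, against 1149.96, 1032 and 976 FPKM in Large White 1, 2 and 3. These groups overlapped (0.34 ± 0.22, adjusted p = 0.180), and median-ratio scaling gave a log2 change of 1.32 ± 0.18 (adjusted p = 0.000163).

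ND1, the subunit at the quinone chamber, had 2354, 1823 and 2269 FPKM in Tibetan 1, 2 and 3, against 1840.04, 1584 and 1408 FPKM in Large White 1, 2 and 3. The lowest Tibetan library overlapped with the highest Large White library, and ND1 was not called (0.42 ± 0.17, limma adjusted p = 0.0531). It was called without Tibetan 2 (log2 change 0.53, adjusted p = 0.0236), without Wujin 1 (0.42, adjusted p = 0.0324) and without Large White 1 (0.52, adjusted p = 0.0442), and after median-ratio scaling it was higher by 1.39 ± 0.16 (adjusted p = 5.13e-05). Of the small subunits, ND6 had 681, 499 and 515 FPKM in Tibetan 1, 2 and 3, against 1096, 924 and 1015 FPKM in Large White 1, 2 and 3. The groups did not overlap (log2 change -0.85 ± 0.18, adjusted p = 0.00184). Relative to the median entry that is -0.08, and after median-ratio scaling the sign turned, with 836 ± 109 in Tibetan against 764 ± 73.1 FPKM in Large White libraries and no call (0.13 ± 0.15, adjusted p = 0.474). ND3 changed by 0.10 ± 0.22 as deposited (adjusted p = 0.690) and by 1.08 ± 0.20 after median-ratio scaling (adjusted p = 0.00113). After quantile normalization, which forces 1 distribution on all libraries, ND3 was called lower instead (-0.82, adjusted p = 0.00467). ND4L had 1629, 1003 and 1773 FPKM in Tibetan 1, 2 and 3, against 1594, 1528 and 1576 FPKM in Large White 1, 2 and 3. Tibetan 2 alone lay below the Large White libraries, the fitted change was -0.14 ± 0.29 (adjusted p = 0.685), and it was 0.84 ± 0.24 after median-ratio scaling (adjusted p = 0.0112).

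**Figure D2:**
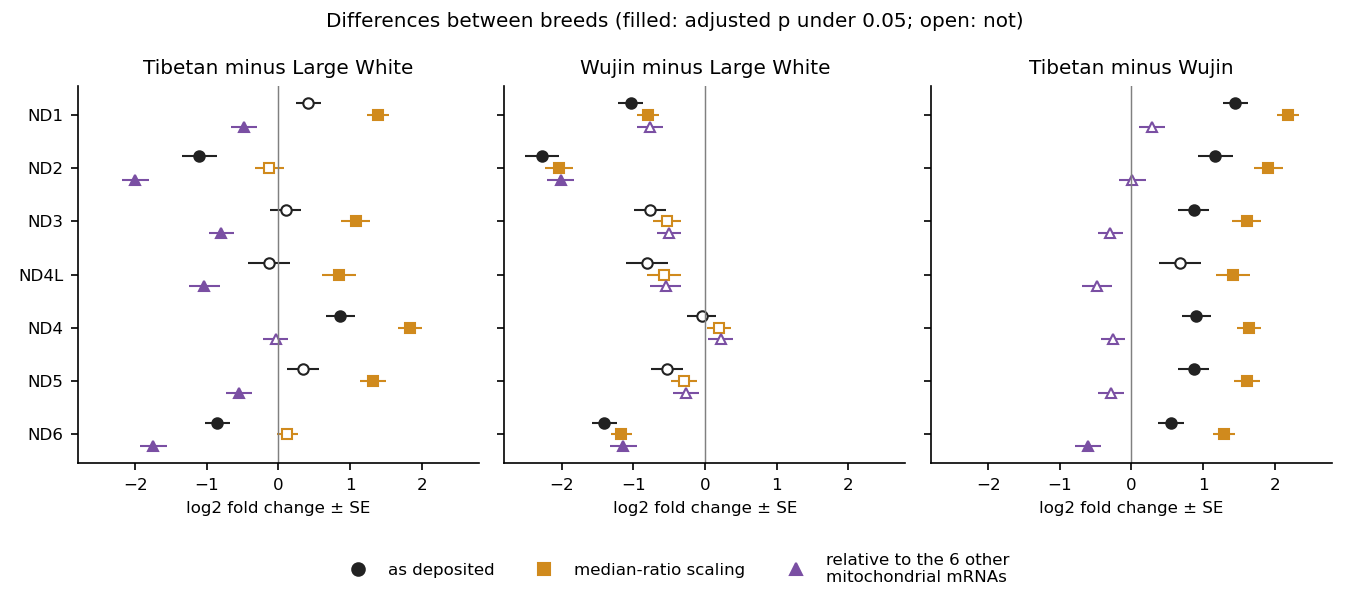
Fitted log2 fold change ± SE of each ND mRNA in the 3 comparisons, from limma on log2(FPKM + 1), as deposited, after median-ratio scaling, and after scaling each library to the summed FPKM of the 6 other mitochondrially encoded mRNAs. Filled symbols passed an adjusted p of 0.05. ND2 and ND6 lie below 0 in Wujin minus Large White under each of these scalings, at -2.27 and -1.40 as deposited.

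The comparison of Wujin with Large White muscle sets the other indigenous breed against the same 3 Large White libraries, so its values share controls with those above. ND1, ND2 and ND6 were lower in Wujin muscle, and ND3, ND4, ND4L and ND5 were not called. That is 3 of 7 members lower, where 4.85% of all entries tested were called lower as deposited, and the same 3 members were lower after median-ratio scaling, where 1.27% of all entries were. No member was called higher in limma's test, against 1.67% of all entries as deposited and 1.87% after median-ratio scaling. At an unadjusted p under 0.05 the count was also 0, against 786 of 13106 entries as deposited and 1724 after median-ratio scaling. The median log2 change of the members was -0.81 as deposited and -0.57 after median-ratio scaling, against -0.20 and 0.00 over all entries. As deposited, 6 of 7 members had every Wujin library below every Large White library, where 35.3% of all entries did.

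ND2 had 227, 346 and 368 FPKM in Wujin 1, a and b, against 1715, 1454 and 1323 FPKM in Large White 1, 2 and 3. The log2 change was -2.27 ± 0.24, a level 4.84-fold lower in Wujin muscle (limma adjusted p = 0.00366). Its p stood 20th from the smallest among the 13106 entries. After median-ratio scaling ND2 averaged 275 ± 38.2 in Wujin and 1133 ± 175 FPKM in Large White libraries (-2.04 ± 0.20, adjusted p = 0.00245). ND6 had 305, 414 and 436 FPKM in Wujin 1, a and b, against 1096, 924 and 1015 FPKM in Large White 1, 2 and 3. The log2 change was -1.40 ± 0.18, which is 2.65-fold lower (adjusted p = 0.00670), and -1.17 ± 0.15 after median-ratio scaling (adjusted p = 0.00900). The calls of ND2 and ND6 held under every alternative run, with adjusted p-values of at most 0.0257 for ND2 and 0.0458 for ND6 when any single library was left out.

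ND1 had 644, 869 and 857 FPKM in Wujin 1, a and b, against 1840.04, 1584 and 1408 FPKM in Large White 1, 2 and 3, a log2 change of -1.03 ± 0.17 (limma adjusted p = 0.0209). The groups lay apart, but the call ended without Wujin a (adjusted p = 0.0506), Large White 1 (0.0680), Large White 2 (0.0889) or Large White 3 (0.0670), and when levels were taken relative to the other mitochondrial mRNAs (0.0586). ND3 stood lower by -0.77 ± 0.22 (adjusted p = 0.0655), and it was called without Wujin b (adjusted p = 0.0456), with quantile normalization (0.0408) and with a pseudocount of 5 (0.0473). ND4L had 571, 1114 and 1114 FPKM in Wujin 1, a and b, all below the Large White libraries, and a change of -0.81 ± 0.29 (adjusted p = 0.0983). ND5 had 535, 866 and 832 FPKM in the same libraries and a change of -0.53 ± 0.22 (adjusted p = 0.135). ND4 stood apart from the rest of the group, with 1051, 1550.3 and 1575 FPKM in Wujin 1, a and b, against 1573, 1385 and 1291 FPKM in Large White 1, 2 and 3. Wujin 1 lay below all Large White libraries, Wujin a among them and Wujin b just above the highest (log2 change -0.04 ± 0.20, adjusted p = 0.897). After median-ratio scaling its change was 0.19 ± 0.17 (adjusted p = 0.475).

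The number of entries called in this comparison was itself unstable, 855 of 13106 with all libraries. It was 66 without Large White 3, 88 without Large White 2, 184 without Large White 1, 141 without Wujin a, 430 without Wujin 1 and 1633 without Wujin b, and without Tibetan 1 or Tibetan 3, which enter through the shared spread, it was 390 and 409. Of the members, 2 to 4 were called lower in those fits.

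Tibetan against Wujin sets the indigenous breeds against each other, with the libraries already used above. All ND mRNAs but ND4L were called higher in Tibetan muscle as deposited, 6 of 7 members where 13.8% of all entries were called higher. After median-ratio scaling 7 of 7 were called higher, where 30.9% of all entries were. In limma's test 0 members were lower on either scale, where 53.9% of all entries were as deposited and 30.4% after median-ratio scaling. The count at an unadjusted p under 0.05 was 0 as well, against 7320 of 13106 entries as deposited and 4247 after median-ratio scaling. The median log2 change was 0.87 as deposited and 1.61 after median-ratio scaling, against -0.55 and 0.00 over all entries. As deposited, 6 of 7 members had every Tibetan library above every Wujin library, where 14.2% of all entries did.

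The difference was largest in fitted size for ND1, at 1.45 ± 0.17 as deposited (limma adjusted p = 7.42e-05) and 2.19 ± 0.16 after median-ratio scaling (adjusted p = 3.57e-06). ND2 followed at 1.17 ± 0.24 (adjusted p = 0.00207), then ND4 at 0.91 ± 0.20 (0.00320), ND5 at 0.87 ± 0.22 (0.00607) and ND3 at 0.87 ± 0.22 (0.00650). ND6 had the smallest change, 0.55 ± 0.18 (adjusted p = 0.0202), and its call ended without Tibetan 1 (0.41, adjusted p = 0.0759) or Wujin 1 (0.40, adjusted p = 0.0583) with equal totals (0.32, adjusted p = 0.140) and with equal totals outside the mitochondrial genome (0.42, adjusted p = 0.0753). ND4L was not called (0.68 ± 0.29, adjusted p = 0.0639). It was called without Tibetan 2 (0.93, adjusted p = 0.0184) and after median-ratio scaling (1.42 ± 0.24, adjusted p = 0.000672).

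A ratio within a library does not depend on how libraries are scaled to each other. It still depends on how well the fragments of each gene aligned in each breed, which was not tested. A breed difference in alignment of 1 gene and a difference in its mRNA level cannot be told apart here. Among the 13 mRNAs of the mitochondrial genome, the 7 ND mRNAs together made up 18.2%, 18.4% and 18.4% of the summed FPKM in Tibetan 1, 2 and 3, then 20.9%, 21.0% and 20.9% in Wujin 1, a and b, while Large White 1, 2 and 3 had 28.5%, 27.8% and 27.8%. The 3 breeds did not overlap, and the spread within a breed was under that between any pair of breeds, also for Wujin 1 and Tibetan 2, whose levels lay apart. The gap between Tibetan and Wujin libraries depends on ATP8, however. ATP8 alone made up 19.4% to 28.7% of the sum among Tibetan, 12.3% to 23.0% among Wujin and 11.9% to 14.9% among Large White libraries. Relative to the other mitochondrial mRNAs without ATP8, Tibetan and Wujin libraries overlapped for ND2, ND3, ND4, ND4L and ND5. They lay apart for ND1, higher in Tibetan, and for ND6, lower in Tibetan libraries. Large White libraries still lay above both breeds for every ND mRNA but ND4. Of the FPKM of all entries, the ND mRNAs made up 2.47% to 3.00% among Tibetan, 1.27% to 1.92% among Wujin and 2.54% to 3.08% among Large White libraries, and the 6 other mitochondrial mRNAs 11% to 13.4% among Tibetan, 4.79% to 7.28% among Wujin and 6.58% to 7.73% among Large White libraries. The Tibetan and Large White ranges overlapped for the ND mRNAs and lay apart for the others.

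ND2 stood apart by the largest ratio of mean shares between Large White and the other breeds among the ND mRNAs. Its share of the 13 mRNAs was 0.646% to 0.874% among Tibetan, 0.717% to 0.742% among Wujin and 2.57% to 2.75% among Large White libraries. ND6 made up 0.546% to 0.673% among Tibetan, 0.859% to 0.999% among Wujin and 1.73% to 1.97% among Large White libraries, with no overlap among the 3 breeds. ND1 made up 2.29% to 2.41% among Tibetan, 1.69% to 2.10% among Wujin and 2.74% to 2.96% among Large White libraries. ND3 made up 8.24% to 9.61% among Tibetan, 10.0397% to 10.7% among Wujin and 13.0046% to 14.1% among Large White libraries. The share of ND4 ran the other way, at 2.6% to 2.94% among Tibetan, 3.11% to 3.44% among Wujin and 2.51% to 2.59% among Large White libraries, so that ND4 was the single ND mRNA whose share was lowest in Large White muscle. ND5 made up 1.31% to 1.65% among Tibetan, 1.64% to 1.797% among Wujin and 1.85% to 1.93% among Large White libraries. ND4L made up 1.26% to 1.88% among Tibetan, 1.87% to 2.31% among Wujin and 2.56% to 3.06% among Large White libraries, and for ND5 and ND4L the Tibetan and Wujin ranges overlapped.

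**Figure D3:**
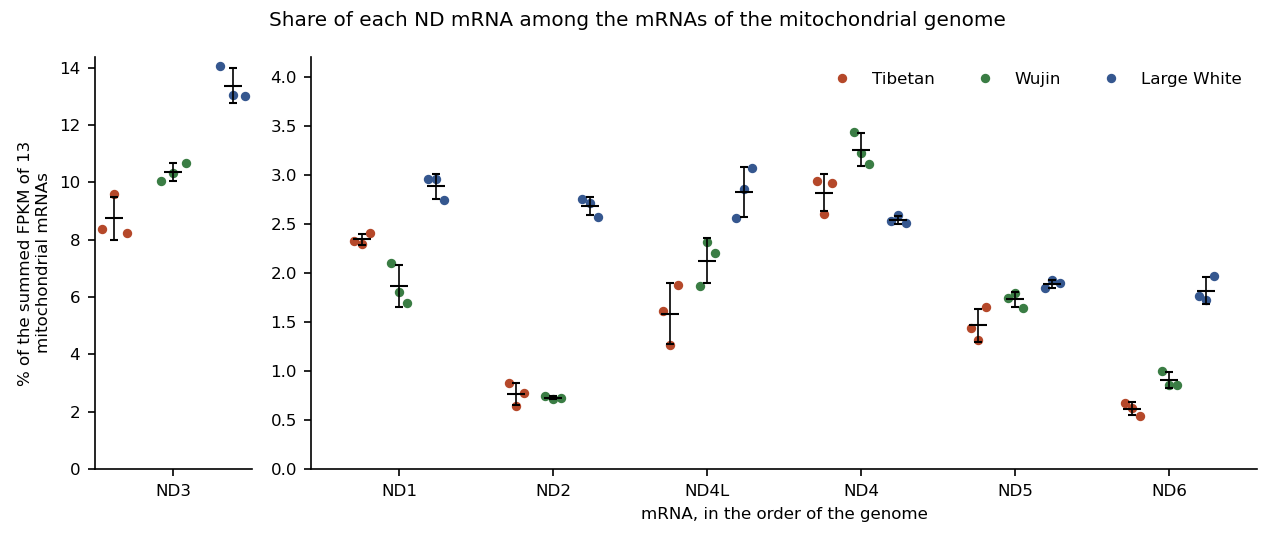
Each ND mRNA as a percent of the summed FPKM of the 13 mitochondrially encoded mRNAs, per library, with the mean ± SD of 3 libraries in black; ND3 has its own axis. ND2 is 0.646% to 0.874% in all Tibetan and Wujin libraries and 2.57% to 2.75% in Large White libraries. ND4 is lowest in Large White libraries, at 2.51% to 2.59%, close to the 2.6% to 2.94% of Tibetan libraries.

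To test these differences across all entries, each library was also scaled to the summed FPKM of COX1, COX2, COX3, CYTB, ATP6 and ATP8, so that a change is relative to the rest of the same genome. On that scale ND2 was lower in Tibetan than in Large White muscle by -2.0 ± 0.19 (limma adjusted p = 3.33e-06) and lower in Wujin than in Large White muscle by -2.01 ± 0.19 (adjusted p = 0.000762). The difference between Tibetan and Wujin was 0.01 ± 0.19 (adjusted p = 0.955). ND6 was lower in Tibetan by -1.75 ± 0.19 (adjusted p = 8.29e-06) and in Wujin by -1.14 ± 0.19 (adjusted p = 0.0167), and lower in Tibetan than in Wujin muscle by -0.61 ± 0.19 (adjusted p = 0.0107). ND4 was not called in any of the comparisons, with changes of -0.04, 0.22 and -0.26. On this scale 80.9% of all entries were called lower in Tibetan than in Large White muscle, so the 6 of 7 members called lower there say little by their number. In Wujin against Large White muscle 2 of 7 members were called lower, where 1.27% of all entries were, and in Tibetan against Wujin muscle 1 of 7, where 82.7% were. ATP8, the shortest of the genes used for scaling, varied most, and without it 4 of 7 members were called lower in Tibetan than in Large White muscle, where 77.6% of all entries were. ND2 then differed by -1.76 ± 0.19 in Tibetan and by -1.92 ± 0.19 in Wujin, and ND6 by -1.51 ± 0.15 in Tibetan and by -1.05 ± 0.15 in Wujin, all called (adjusted p at most 0.0102).

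A few pairs of ND mRNAs were also compared within each library. All but ND2 to ND1 and ND6 to ND2 were divided by ND4, the mRNA whose share was lowest in Large White muscle. Those ratios share that divisor and are not separate support for a contrast. Other pairs divided by ND1 were not taken. The ratio of ND2 to ND1, neighbours in the genome, was 0.376, 0.282 and 0.322 in Tibetan 1, 2 and 3, then 0.352, 0.398 and 0.429 in Wujin 1, a and b, while Large White 1, 2 and 3 had 0.932, 0.918 and 0.9396. All Large White libraries lay above both indigenous breeds, which overlapped. The ratio of ND6 to ND4 was 0.187 to 0.241 among Tibetan, 0.267 to 0.291 among Wujin and 0.667 to 0.786 among Large White libraries. The ratio of ND5 to ND4 was 0.489 to 0.566 among Tibetan, 0.508 to 0.559 among Wujin and 0.731 to 0.756 among Large White libraries. For ND4L to ND4, the overlapping pair, it was 0.485 to 0.646 among Tibetan, 0.543 to 0.718 among Wujin and 1.01 to 1.22 among Large White libraries. The ratio of ND1 to ND4 separated all 3 breeds, with 0.791 to 0.882 among Tibetan, 0.544 to 0.612 among Wujin and 1.09 to 1.17 among Large White libraries. ND6 to ND2 was 0.705 to 0.97 among Tibetan, 1.18 to 1.35 among Wujin and 0.636 to 0.767 among Large White libraries, and here Wujin stood apart.

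**Figure D4:**
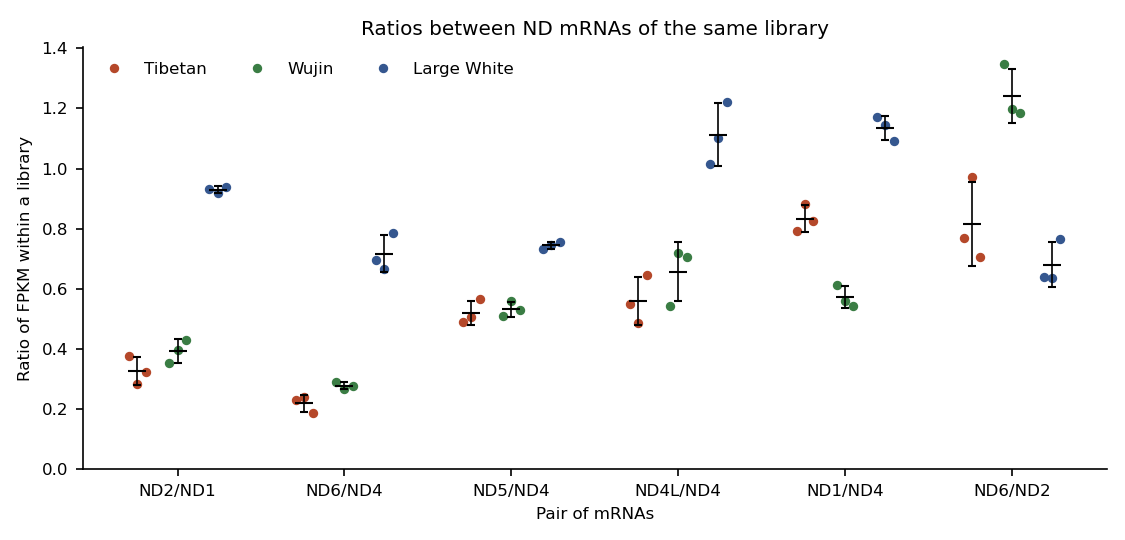
Ratios of the FPKM of pairs of ND mRNAs within each library, with the mean ± SD of 3 libraries in black. Large White libraries lie above both other breeds for the first 5 pairs, with ND2/ND1 at 0.918 to 0.9396 against 0.282 to 0.429, and Wujin libraries are highest for ND6/ND2. Of those first 5 pairs, all but ND2/ND1 are divided by ND4.

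The other mitochondrial mRNAs give the setting for these ratios. As deposited, 5 of the 6 were called higher in Tibetan than in Large White muscle and 0 lower in limma's test, against 13% of all entries called higher and 63.2% lower. At an unadjusted p under 0.05 the number lower was also 0, against 8423 of 13106 entries. Their median log2 change was 0.68, against 0.10 for the ND mRNAs. COX1, a catalytic subunit of cytochrome oxidase, averaged 11630.4 ± 1210 FPKM in Tibetan, 5945 ± 257 in Wujin and 6790 ± 386 in Large White libraries. The ratio of ND4 to COX1 overlapped among the breeds, at 0.202 to 0.242 among Tibetan, 0.186 to 0.257 among Wujin and 0.202 to 0.220 among Large White libraries. That of ND1 to COX1 did not, at 0.178 to 0.191 among Tibetan, 0.114 to 0.144 among Wujin and 0.221 to 0.257 among Large White libraries.

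Complex I also needs its nuclear subunits. Of 37 nuclear subunit genes listed, 20 were matched by symbol, 3 of them core subunits, and all 20 were tested. In Tibetan against Large White muscle 3 of 3 core and 15 of 17 accessory subunits were called higher as deposited, where 13% of all entries were, and 3 and 17 after median-ratio scaling, where 32.4% were. The median log2 change of the accessory subunits was 0.94 as deposited. NDUFA9, an accessory subunit, averaged 143 ± 0.546 FPKM in Tibetan, 43.0 ± 2.02 in Wujin and 42.7 ± 3.98 in Large White libraries. In Wujin against Large White muscle 0 of 3 core subunits were called either way by limma. At an unadjusted p under 0.05, 1 was higher and 2 lower as deposited, where 786 of all 13106 entries were higher and 3459 lower. Of the 17 accessory subunits NDUFS6 was called higher and NDUFB5 lower as deposited, where 1.67% and 4.85% of all entries were, and neither was after median-ratio scaling. NDUFS6 was singled out after its values were seen.

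The sum of the ND mRNAs and that of the matched nuclear subunits thus stood in different proportion. Both sums lean on their most abundant genes. ND3 averaged 7971 FPKM in Tibetan, 4490 in Wujin and 7478 in Large White libraries. NDUFB7, the highest nuclear one, averaged 1011 FPKM in Tibetan, 469 in Wujin and 385 in Large White libraries. The summed FPKM of the 7 ND mRNAs was 14590 to 18477 among Tibetan, 6405 to 10597 among Wujin and 14278 to 17732 among Large White libraries. That of the 20 nuclear subunits was 3413 to 4603 among Tibetan, 1919.8 to 2025 among Wujin and 1685 to 1986 among Large White libraries. The ratio of the sums was 4.82, 3.17 and 5.09 in Tibetan 1, 2 and 3, then 3.16, 5.09 and 5.52 in Wujin 1, a and b, while Large White 1, 2 and 3 had 8.93, 8.60 and 8.47. The indigenous breeds overlapped and all of their libraries lay below the Large White libraries.

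**Figure D5:**
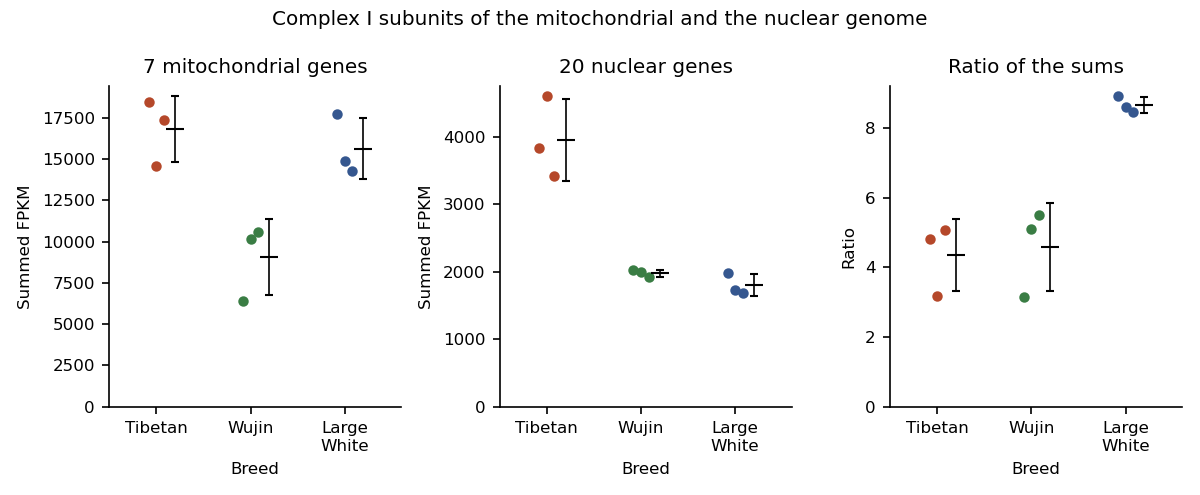
Summed FPKM of the 7 mitochondrially encoded complex I subunits (left), of the 20 matched nuclear subunits (middle) and the ratio of the 2 sums (right) in each library, with mean ± SD of 3 libraries beside the points. The ratio is 3.16 to 5.52 in Tibetan and Wujin libraries and 8.47 to 8.93 in Large White libraries.

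Of the genes that act on the mitochondrial genome and its RNA, 33 were listed and 23 tested. In Tibetan against Large White muscle 5 were called higher and 4 lower as deposited (median -0.18), where 13% of all entries were called higher and 63.2% lower. After median-ratio scaling 16 were higher and 1 lower, where 32.4% and 33.0% of all entries were. MGME1, a nuclease of mitochondrial DNA replication, was lower on either scale, at 1.90 ± 0.222 FPKM in Tibetan, 6.33 ± 0.826 in Wujin and 9.28 ± 0.814 in Large White libraries. LRPPRC, which stabilises mitochondrial mRNAs other than ND6, averaged 15.8 ± 2.67 FPKM in Tibetan, 8.0 ± 2.86 in Wujin and 15.5 ± 0.358 in Large White libraries, and was the single gene of this list called lower in Wujin than in Large White muscle (-0.92, limma adjusted p = 0.0482), 1 of 23 where 4.85% of all entries were, though not after median-ratio scaling (-0.70, adjusted p = 0.0635). Of 13 assembly factors tested, 4 were higher and 0 lower in Tibetan than in Large White muscle as deposited, and 11 and 0 after median-ratio scaling, against the same shares of all entries. At an unadjusted p under 0.05 they were 5 and 0 as deposited, against 1763 and 8423 of 13106 entries. ECSIT, an assembly factor, averaged 111 ± 13.4 FPKM in Tibetan, 32.0 ± 4.89 in Wujin and 27.6 ± 1.56 in Large White libraries. NDUFAF1, which acts early in the assembly of the membrane arm, averaged 8.89 ± 1.90 FPKM in Tibetan, 3.03 ± 1.35 in Wujin and 6.83 ± 0.721 in Large White libraries, and was lower in Wujin than in Large White muscle (-1.01, adjusted p = 0.0485), the single one of 13, where 4.85% of all entries were lower. That call also ended after median-ratio scaling (-0.80, adjusted p = 0.0650).

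Of 7 factors of mitochondrial biogenesis tested, 3 were higher and 2 lower in Tibetan than in Large White muscle as deposited, where 13% of all entries were higher and 63.2% lower. After median-ratio scaling 5 were higher and 2 lower, where 32.4% and 33.0% of all entries were. ESRRA, a nuclear receptor that drives genes of oxidative metabolism, averaged 38.3 ± 3.35 FPKM in Tibetan, 6.37 ± 0.556 in Wujin and 6.35 ± 0.286 in Large White libraries. PPARGC1A, its coactivator, averaged 26.4 ± 16.5 FPKM in Tibetan, 2.09 ± 0.238 in Wujin and 1.89 ± 0.418 in Large White libraries. NRF1, a transcription factor of respiratory genes, was lower, at 2.29 ± 0.169 FPKM in Tibetan, 5.37 ± 0.260 in Wujin and 6.22 ± 0.111 in Large White libraries. Of 11 genes of the outer membrane, matrix and cristae, 7 were higher and 3 lower in Tibetan than in Large White muscle as deposited, and 10 and 0 after median-ratio scaling, against the same shares of all entries. VDAC1, the outer membrane channel, averaged 238 ± 10.8 FPKM in Tibetan, 86.6 ± 3.21 in Wujin and 96.0 ± 3.01 in Large White libraries. In Wujin against Large White muscle 0 genes of either list were called by limma as deposited, where 1.67% of all entries were called higher and 4.85% lower. At an unadjusted p under 0.05 the biogenesis list had 1 higher and 0 lower, and the other list 0 higher and 4 lower. At that threshold 786 of all 13106 entries were higher and 3459 lower.

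Among 8069 tested genes with a symbol outside the mitochondrial genome, those whose levels ran most like the mean log2(FPKM + 1) of the ND mRNAs over the 9 libraries were PITRM1, a peptidase of the mitochondrial matrix (Pearson's r = 0.977), LRPPRC (0.971), NMD3, an export adaptor of the large ribosomal subunit (0.962), TOMM70, an import receptor of the outer membrane (0.961), and USP47, a deubiquitinating enzyme (0.961). After median-ratio scaling they were GPD1L (0.992), LRPPRC (0.984), PITRM1 (0.983), UBE3A, a ubiquitin ligase (0.983) and NDUFAF1 (0.982). A coefficient over 0.9 was reached by 72 of the 8069 genes as deposited and by 434 after median-ratio scaling. The libraries form 3 breed groups and share their scaling, so these coefficients mostly give the order of the breeds, and they carry no test. PITRM1 averaged 12.8 FPKM in Tibetan, 7.27 in Wujin and 12.9 in Large White libraries, with Wujin lowest as for the ND mRNAs.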

How the data were processed

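Per the labels' protocols, libraries were made with a TruSeq RNA kit from total RNA extracted by Trizol from frozen muscle. The authors deposited 1 table of FPKM per gene and library for the 9 libraries, per the file headers. Alignment software listed per the submitters' processing notes is TopHat, without a version. Quantifier, build and annotation: not given in the sources used here. All 9 value columns were used; 2 Wujin columns share a header. Symbols were matched by identifier for 11179 of 19643 entries (56.91%). No genome was used, so no positions or sequences are given.

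Entries averaging 1 FPKM or more were fitted on log2(FPKM + 1) with limma 3.58.1 in R 4.3.3, with 3 breed means, 9 libraries, 1 shared spread and a variance trend. Benjamini-Hochberg adjustment covered all 13106 entries, and a call is an adjusted p under 0.05. Fold changes on this scale understate those of low genes. The fit was checked on simulated data. Shares and ratios were computed within libraries and have no test. FPKM give no counts, so no counting interval can be given. Replicate numbers did not pair Tibetan with Large White libraries.

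The members and lists were chosen with earlier results of these data known. Genes named were all members, the other mitochondrial mRNAs, up to 4 genes per nuclear list by smallest p of limma's F test, 11 fixed partners where matched, and the 5 most alike in pattern per scaling; ACTA1, ACTC1, MYH3, MYH8, HBZ and NPPB are markers, and single ones were named after their values were seen. A part of these is printed, and 1 nuclear subunit is not reported here. Alternatives changed the pseudocount (0.1 or 5), filter (none or 5 FPKM), scaling, variance trend, libraries in the fit and replicate block; scaling without ATP8 was added after seeing the data.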

Additional observations from a re-analysis of the deposited data

How the results depend on the processing

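ND2 and ND6 in Wujin against Large White muscle kept their direction and call under all alternatives run. Over the 7 members and 3 comparisons, 403 of the alternative values kept direction and side of the threshold, 18 passed it newly, 14 no longer passed and 34 changed sign. Log2 changes that changed sign were these. After median-ratio scaling they were ND4L (0.84) and ND6 (0.13) in Tibetan against Large White and ND4 (0.19) in Wujin against Large White. With equal totals they were ND3 (-0.042) in Tibetan against Large White and ND4 (0.050) in Wujin against Large White, and without the 50 highest entries ND4L (0.12) and ND4 (0.090) in the same comparisons. With equal totals outside the mitochondrial genome it was ND4 (0.023) in Wujin against Large White. After quantile normalization they were ND3 (-0.82) and ND4L (0.10) in Tibetan against Large White, ND4 (0.081) in Wujin against Large White and ND3 (-0.020) in Tibetan against Wujin. Relative to the other mitochondrial mRNAs they were ND1 (-0.48), ND3 (-0.80), ND4 (-0.036) and ND5 (-0.55) in Tibetan against Large White, ND4 (0.22) in Wujin against Large White, and ND3 (-0.29), ND4 (-0.26), ND4L (-0.48), ND5 (-0.29) and ND6 (-0.61) in Tibetan against Wujin. Without ATP8 in that sum they were ND1 (-0.24), ND3 (-0.56) and ND5 (-0.32), then ND4 (0.31), then ND3 (-0.15), ND4 (-0.11), ND4L (-0.34), ND5 (-0.14) and ND6 (-0.46) in the same 3 comparisons. ND4L in Tibetan against Large White turned to 0.12 without Tibetan 2, and ND4 in Wujin against Large White to 0.15 without Wujin 1 and 0.03 without Large White 1. For each of these the cause was not tested beyond the scaling or library named.

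Members called higher in Tibetan than in Large White muscle numbered 1, against 5 after median-ratio scaling, 3 with equal totals without the 50 highest entries, 2 after quantile normalization and 0 relative to the other mitochondrial mRNAs, with or without ATP8. Those called lower numbered 2, against 0 after median-ratio scaling and 6 or 4 relative to the other mitochondrial mRNAs with or without ATP8. In Tibetan against Wujin muscle the members called higher numbered 6, against 0 and 1 on those last scales, and those called lower 0, against 1 and 1. With single libraries left out, 1 to 2 members were higher and 2 to 2 lower in Tibetan against Large White, 0 to 0 and 2 to 4 in Wujin against Large White, and 5 to 7 and 0 to 0 in Tibetan against Wujin. All entries called in these fits numbered 9240 to 10410, 66 to 1633 and 8024 to 9578 in the 3 comparisons. Entries called in Wujin against Large White, 855, numbered 270 and 1831 with pseudocounts of 0.1 and 5, 412 after median-ratio scaling, 455 with equal totals without the 50 highest entries, 313 relative to the other mitochondrial mRNAs and 280 with only the 6 libraries of both breeds. At a mean of at least 5 FPKM, where fewer entries were tested, they numbered 402, with 5533 in Tibetan against Large White and 5181 in Tibetan against Wujin.

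Tibetan and Large White columns share the numbers 1 to 3, but the deviations of same-numbered libraries from their breed means correlated by 0.0130, -0.0226 and -0.0760 across entries, so they share only a number. With the replicate block, 1 member was called higher, 2 lower and 10064 entries in all. No Tibetan or Large White library correlated best with its own number. The Wujin columns carry too few numbers for a block. Depth is unknown, so the smallest change that could be seen is unknown too.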
